A study of Mus musculus with 12 samples.

Results

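The globins of the early mouse embryo and 3 genes that mark red blood cell formation are described here across 12 RNA-seq libraries. They are the embryonic globins Hba-x, Hbb-bh1 and Hbb-y, the fetal and adult globins Hba-a1, Hba-a2, Hbb-bs and Hbb-bt, and the erythroid genes Alas2, Gata1 and Klf1. These 10 genes were found by Ensembl gene ID among the 53647 gene IDs of the deposited table, and all 10 passed the filter on low values. Polyadenylated RNA was sequenced from whole embryos at embryonic day 9.5 (E9.5). Values are TPM, transcript abundance per unit of transcript length scaled to a fixed sum in each library, so levels of different genes can be set side by side but read depth is unknown.

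Each of the 6 groups held 2 libraries, numbered 1 and 2 in the labels. Embryos labelled p53 +/+ (wild type) were left untreated, or were taken 1 h or 3 h after the pregnant mother received 30 Gy of X-rays at 5 Gy per minute. Embryos labelled p53 -/- (knockout) were handled in the same 3 ways. The labels give no strain, p53 allele or number of embryos per library. Whether a group's 2 libraries are from different embryos or mothers is also not given. All p-values therefore measure the spread between these libraries, which may be technical.

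The targeted transcript went against the genotype labels. Trp53 was higher in the library labelled knockout in 5 of 6 same-numbered pairs, and the exception was the untreated pair numbered 2, at 211 TPM in wild type and 79.1 TPM in knockout. A transcript level does not show where a deletion lies. Cdkn1a (p21), a target that p53 activates, stood between 5.38 and 8.36 TPM in all 8 libraries that were untreated or labelled wild type. It reached 79.4 and 76.2 TPM after 1 h and then 499 and 444 TPM after 3 h with the knockout label. Genotypes are therefore given throughout as the libraries were labelled.

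At this stage nearly all circulating red cells belong to the primitive lineage, which arises in the blood islands of the yolk sac and matures in the bloodstream while still nucleated. Haemoglobin pairs alpha-type chains with beta-type chains, and the genes of each type lie together on one chromosome. Primitive cells use the embryonic chains made from Hba-x (zeta), Hbb-bh1 (beta-h1) and Hbb-y (epsilon-y) together with the adult alpha chains of Hba-a1 and Hba-a2, and as they mature the beta-type message shifts from Hbb-bh1 towards Hbb-y. Hbb-bs and Hbb-bt encode the adult beta chains of the definitive lineage. Alas2 makes the first and rate-limiting enzyme of erythroid haem synthesis, and Gata1 and Klf1 encode transcription factors that bind GATA and CACCC motifs in the control regions of globin and other red cell genes.

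The promoters of 5 members are shown so that their upstream sequences can be set side by side. RefSeq promoters on GRCm38.p6 were matched for 9 of the 10 members by symbol, all but Hbb-bh1. Each line gives the 150 bases before the annotated start, 5′ to 3′ on the gene's strand. Capitals mark the motif CACCC and the motif CCAAT on either strand, and the motif TATAA on the strand shown. They also mark GATA motifs on either strand, spelled AGATAA or AGATAG, and with a leading T in place of the A also TGATAA or TGATAG.
Hba-x, chr11:32276450-32276599, plus strand: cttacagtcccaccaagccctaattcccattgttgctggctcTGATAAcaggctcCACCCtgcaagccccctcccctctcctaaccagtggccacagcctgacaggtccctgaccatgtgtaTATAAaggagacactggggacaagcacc
Hba-a1, chr11:32283522-32283671, plus strand: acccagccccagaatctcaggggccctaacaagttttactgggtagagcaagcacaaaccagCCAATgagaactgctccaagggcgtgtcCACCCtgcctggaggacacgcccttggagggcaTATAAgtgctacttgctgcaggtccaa
Hbb-y, chr7:103853208-103853357, minus strand: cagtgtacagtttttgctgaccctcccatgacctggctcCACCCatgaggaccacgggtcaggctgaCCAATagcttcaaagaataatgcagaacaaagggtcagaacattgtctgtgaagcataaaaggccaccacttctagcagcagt
Hbb-bs, chr7:103827929-103828078, minus strand: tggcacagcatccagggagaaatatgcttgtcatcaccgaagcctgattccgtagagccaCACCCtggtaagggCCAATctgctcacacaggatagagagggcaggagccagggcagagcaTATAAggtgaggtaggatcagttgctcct
Alas2, chrX:150547267-150547416, plus strand: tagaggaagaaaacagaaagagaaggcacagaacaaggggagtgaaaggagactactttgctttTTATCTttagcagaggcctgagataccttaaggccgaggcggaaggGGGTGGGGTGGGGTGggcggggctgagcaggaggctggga

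All 9 matched promoters held CACCC in this window, against 37.4% of 32851 mouse promoters of the same length. A GATA motif was present in Hba-x, Alas2 and Klf1, against 16.0% of all promoters, and CCAAT in Hbb-y, Hba-a1, Hba-a2, Hbb-bs, Hbb-bt and Klf1, against 24.5%. TATAA was present in Hba-x, Hba-a1, Hba-a2, Hbb-bs and Hbb-bt, against 9.99%. In Hba-x the GATA motif at -108 to -103 stood next to CACCC at -95 to -91, counted from -1 at the base before the start. These matches describe the sequence and do not show binding. The promoters of Hba-a1 and Hba-a2 shared an unbroken run of 247 of 250 bases, whereas Hba-a1 and Hba-x shared at most 10.

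The duplicated genes also resemble each other within the transcript. Of the windows of 75 bases (the read length) in the GENCODE transcript of Hba-a2, 81.0% were also found in Hba-a1, and 64.3% of those in Hbb-bs were also found in Hbb-bt. The split between the genes of each of these pairs is therefore uncertain, while the 3 embryonic globins shared no such window with another globin.

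The embryonic globins had the highest mean levels of the members. Hba-x stood at 3392 and 2367 TPM (libraries 1 and 2) in the untreated, 4515 and 2697 in the 1 h and 2419.9 and 2813 in the 3 h libraries labelled wild type. With the knockout label its levels were 1213 and 2057 TPM untreated, 2575 and 2096 at 1 h and 7009 and 4366 at 3 h. Both 3 h libraries lay above both untreated and both 1 h libraries of that label.

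Hbb-bh1, the beta-type globin of the youngest primitive cells, measured 1329 and 1469 TPM untreated, 2441 and 3513 at 1 h and 1208 and 1616 at 3 h with the wild-type label. With the knockout label it measured 456 and 1385 TPM untreated, 1237 and 2948 at 1 h and 3819 and 2731 at 3 h. Its 1 h libraries labelled wild type lay above both untreated ones, and its untreated and 3 h libraries of that label overlapped. Hbb-y is the beta-type globin of more mature primitive cells. Its wild-type-labelled levels were 1233 and 1922 TPM untreated, 1558 and 4314 at 1 h and 861 and 2047 at 3 h. Its knockout-labelled levels were 248 and 1531 TPM untreated, 981 and 3237 at 1 h and 2439 and 3889 at 3 h. The library numbered 2 was the higher one in all 6 groups, and the 1 h library numbered 2 labelled wild type was the highest of the 12.

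The adult alpha genes followed a similar order at lower levels. Hba-a2 measured 954 and 1303 TPM untreated, 1074 and 1470.1 at 1 h and 535 and 1440.2 at 3 h with the wild-type label, and 247 and 1048, 592 and 1234, and 1779 and 2468 TPM at the same times with the knockout label. Its 3 h libraries labelled knockout were the 2 highest of the 12. Hba-a1 measured 537 and 697, 593.5 and 1104, and 317 and 681 TPM with the wild-type label, and 137 and 556, 400.0 and 883, and 969 and 1357 TPM with the knockout label. The 3 h libraries labelled knockout again lay above both untreated ones, and the library numbered 2 was the higher one in every group for both genes.

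Adult beta messages were scarce at this stage. Hbb-bs measured 16.3 and 13.4, 14.05 and 20.2, and 8.96 and 15.9 TPM with the wild-type label, and 8.54 and 16.9, 14.5 and 25.6, and 25.4 and 37.95 TPM with the knockout label. Its near-copy Hbb-bt had another pattern. It measured 0.80 and 4.11, 6.70 and 20.1, and 3.43 and 4.41 TPM with the wild-type label, and 1.01 and 7.75, 4.85 and 18.9, and 7.56 and 7.60 TPM with the knockout label. Both 1 h libraries numbered 2 were its highest, and its 3 h libraries labelled knockout did not lie above both untreated ones. Together Hbb-bs and Hbb-bt made up between 0.513% and 1.34% of beta-type globin TPM in the 12 libraries.

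The haem enzyme and the transcription factors differed in pattern. Alas2 measured 20.3 and 30.9 TPM untreated, 27.6 and 28.6 at 1 h and 16.65 and 35.0 at 3 h with the wild-type label. With the knockout label it measured 6.63 and 23.2 TPM untreated, 17.7 and 23.7 at 1 h and 51.3 and 60.9 at 3 h, the last pair being the 2 highest of the 12. Gata1 stayed between 1.71 and 4.72 TPM, with 1.71 and 4.22 untreated and 4.2 and 4.46 at 3 h under the knockout label. Klf1 stayed between 3.23 and 8.53 TPM, with 3.23 and 8.53 untreated and 8.33 and 7.35 at 3 h under that label. For both factors these groups overlapped. With the wild-type label Klf1 was at 8.28 and 8.15 TPM untreated and at 4.57 and 7.26 TPM at 3 h, both lower.

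In mean level over the 12 libraries Hba-x came first at 3130 TPM, then Hbb-y at 2020 and Hbb-bh1 at 2010, Hba-a2 at 1180, Hba-a1 at 686, Alas2 at 28.5, Hbb-bs at 18.1, Hbb-bt at 7.27, Klf1 at 6.54 and Gata1 at 3.59. Neighbours in this order overlapped in range over the 12 libraries, except Hba-a1 and Alas2. The ratio of highest to lowest library ran from 2.64 for Klf1 and 2.76 for Gata1 to 17.4 for Hbb-y and 25.2 for Hbb-bt. For 9 of the 10 members the lowest library of all 12 was the untreated library numbered 1 labelled knockout. The share of all tested genes that were lowest in that library was not computed. That library also had the fewest genes at 1 TPM or more, 13724.

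**Figure D1:**
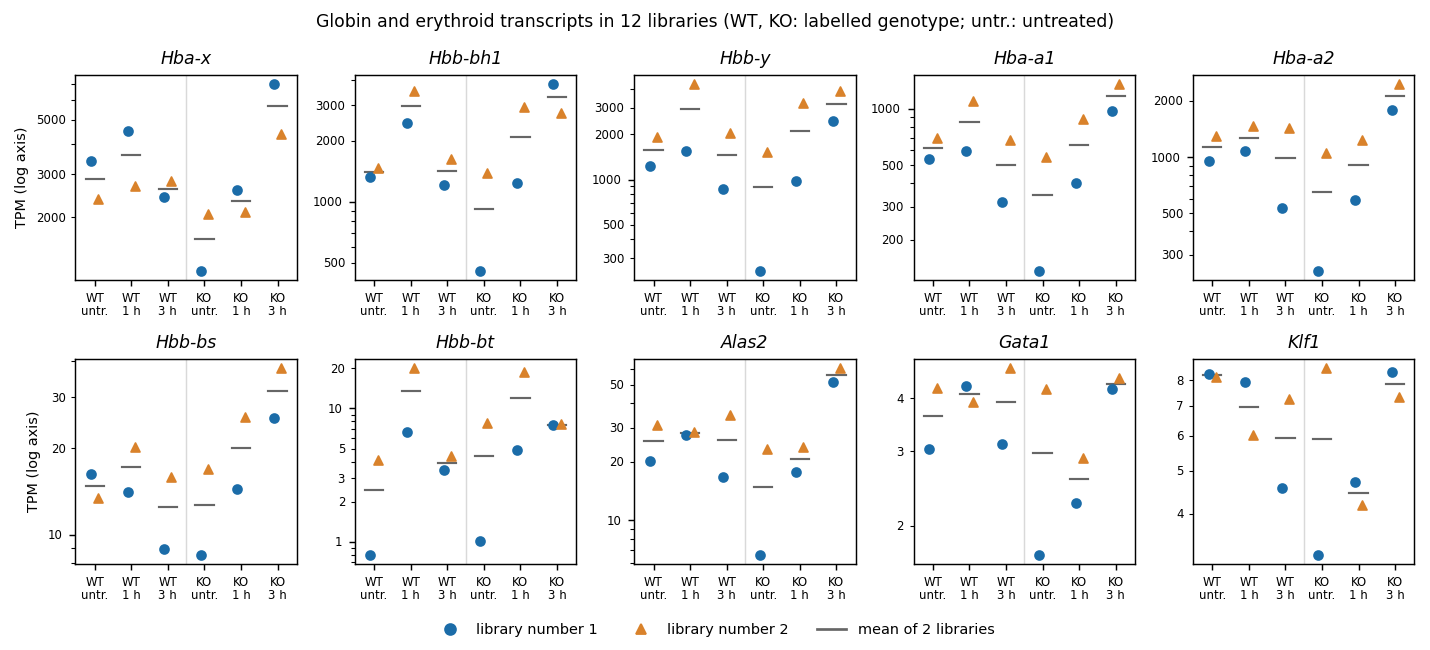
TPM of each of the 10 genes (log axis, own range per panel) in the 6 groups, with circles for library number 1, triangles for number 2 and a line at the mean of both. The 3 h libraries labelled knockout lie above both untreated libraries of that label for 7 genes (the globins other than Hbb-bt, and Alas2). The same held for 19.0% of all tested genes. The untreated library numbered 1 labelled knockout is the lowest of 12 for 9 genes. For all tested genes the share lowest in that library was not computed.

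The first comparison asks how these transcripts changed 3 h after irradiation in embryos labelled knockout. In that comparison Hba-x rose by a log2 fold change of 1.81 (SE 0.39, limma adjusted p = 0.0191), Alas2 by 2.07 (SE 0.521, adjusted p = 0.0356) and Hbb-bh1 by 2.02 (SE 0.558, adjusted p = 0.0497). These 3 of 10 members stand beside 6.25% of the 15535 tested genes called higher. Every log2 fold change here is of TPM + 1, so changes of low genes are understated, and calls were made at an adjusted p below 0.05. Hbb-y had the largest estimate, 2.32, with the largest SE, 0.932 (adjusted p = 0.161), and Hba-a1 (2.05, adjusted p = 0.096), Hba-a2 (2.04, adjusted p = 0.106) and Hbb-bs (1.29, adjusted p = 0.0819) did not pass either. Hbb-bt was at 1.03 (adjusted p = 0.538), Gata1 at 0.50 (adjusted p = 0.386) and Klf1 at 0.48 (adjusted p = 0.489).

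With the library number as a block, 7 members passed: the 3 named and Hbb-y (adjusted p = 0.00584), Hba-a1 (0.00379), Hba-a2 (0.00661) and Hbb-bs (0.00749), beside 11.1% of tested genes called higher. For the same 7 members both 3 h libraries lay above both untreated ones, which held for 19.0% of tested genes. The median of the 10 estimates was 1.91, against -0.12 over all tested genes. In whole embryos more red cells and more message per red cell cannot be told apart.

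The size of this change differed between the library numbers. The 2 untreated libraries labelled knockout also differed in Trp53, at 265 TPM in number 1 and 79.1 TPM in number 2. Those labelled wild type differed as well, at 114 TPM in number 1 and 211 TPM in number 2. Whether the libraries of either pair share a genotype was not tested. Between the knockout-labelled libraries numbered 1 Hbb-y was 9.83 times, Hbb-bh1 8.38 times and Hba-x 5.78 times its untreated level. Between those numbered 2 the ratios were 2.54, 1.97 and 2.12. Alas2 gave 7.73 and 2.63, Gata1 2.46 and 1.06, and Klf1 2.58 and 0.862. Without the untreated library numbered 1 labelled knockout no member passed, with estimates still at 1.43 for Hba-x, 1.22 for Hbb-bh1 and 1.23 for Alas2, and without the 3 h library numbered 1 no member passed either. Without the untreated library numbered 2 of that label 5 passed, and 1 passed, Hba-x, without the 3 h library numbered 2 or without any 1 of the untreated or 1 h libraries labelled wild type.

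The same comparison with the wild-type label gave estimates between -0.44 (Klf1) and 0.69 (Hbb-bt), with a median of -0.17 against 0.02 over all genes. No member passed, and limma called 0% of tested genes there, with 524 genes at an unadjusted p under 0.05 and 24 called with the block. The difference between the 3 h responses (knockout minus wild type label) was above 0 for all 10 members and largest for Hbb-y (2.53, SE 1.32) and Hba-a1 (2.45, SE 0.972). None passed, beside 3.45% of genes called. With the block 6 members passed (Hba-x, Hbb-y, Hba-a1, Hba-a2, Hbb-bs and Alas2, adjusted p between 0.0179 for Hba-a1 and 0.0415 for Hba-x), beside 5.99% of genes called higher.

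**Figure D2:**
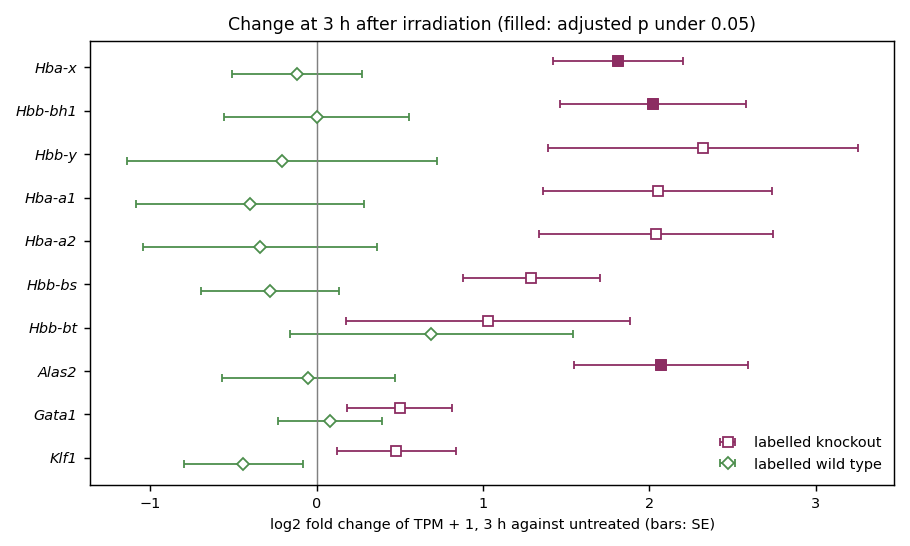
Log2 fold change of TPM + 1 at 3 h against untreated for each gene (points) with its SE (bars), squares for libraries labelled knockout and diamonds for libraries labelled wild type. Filled points passed an adjusted p of 0.05: Hba-x, Hbb-bh1 and Alas2 with the knockout label and none with the wild-type label. Among all tested genes 6.25% were called higher with the knockout label, and 0% were called with the wild-type label.

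At 1 h no member passed under either label. Under the knockout label the estimates had a median of 0.70 and were largest for Hbb-y (1.53, SE 0.932) and Hbb-bt (1.36, SE 0.852), beside 0.103% of genes called. With the wild-type label Hbb-bt (2.07, SE 0.852) and Hbb-bh1 (1.07, SE 0.558) had the largest estimates. There limma called 0% of genes, with 618 at an unadjusted p under 0.05 and 0 with the block. The difference of the 1 h responses passed for no member, beside 0.00644% of genes. For 3 h against 1 h with the knockout label no member passed beside 11.2% of genes, and with the block Alas2 (1.40, adjusted p = 0.0196), Hba-x (1.25, adjusted p = 0.0318) and Hba-a2 (1.29, adjusted p = 0.041) were higher, beside 13.4% called higher. With the wild-type label all 10 estimates for 3 h against 1 h were below 0, with a median of -0.49. None passed, and again 0% of genes were called, with 928 at an unadjusted p under 0.05 and 13 with the block.

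The labels were also compared at the same time point. In untreated embryos 9 of 10 estimates were lower with the knockout label (median -0.83, none passed, 0.0193% of genes called), and at 1 h 9 of 10 were lower (median -0.53, none passed, 0.0386% called). At 3 h all 10 were higher (median 1.19, none passed, 10.3% called). With the block Hbb-bs (1.3, adjusted p = 0.00799), Hba-a1 (1.3, adjusted p = 0.0256), Alas2 (1.17, adjusted p = 0.0384) and Hba-a2 (1.25, adjusted p = 0.0463) passed at 3 h, beside 9.67% of genes called higher. These comparisons share libraries with the ones above and do not add to them.

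Summed over the 7 globins, the share of all TPM was 0.746% and 0.778% in untreated, 1.02% and 1.31% in 1 h and 0.535% and 0.862% in 3 h libraries labelled wild type. With the knockout label it was 0.231% and 0.66% untreated, 0.58% and 1.04% at 1 h and 1.60% and 1.49% at 3 h. The 3 h libraries labelled knockout were the 2 highest of the 12, and the lowest was the untreated library numbered 1 of that label. Relative to the globin sum Alas2 stood at 2.18 to 4.10 TPM per 1000 TPM of globin over all libraries. Klf1 stood at 1.40 and 1.29 per 1000 in untreated and 0.519 and 0.495 in 3 h libraries labelled knockout, and Gata1 at 0.740 and 0.639 against 0.262 and 0.300. Both factors were thus lower per globin message in both 3 h libraries of that label than in both untreated ones. With the wild-type label Klf1 stood at 1.11 and 1.05 per 1000 untreated and 0.854 and 0.843 at 3 h, also lower without overlap, and Gata1 at 0.406 and 0.544 against 0.583 and 0.548.

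Within the globin message 3 of the shares computed separated the libraries by number. Hba-x made up 69.5% to 76.0% of alpha-type TPM in the 6 libraries numbered 1 and 49.8% to 57.0% in the 6 numbered 2, without overlap. Hbb-y made up 35.3% to 48.1% of the sum of Hbb-y and Hbb-bh1 in libraries numbered 1 and 52.3% to 58.7% in those numbered 2, again without overlap. The ratio of alpha-type to beta-type TPM was 1.54 to 2.24 in libraries numbered 1 and 0.67 to 1.34 in those numbered 2. Its lowest values, 0.67 and 0.676, belonged to the 1 h libraries numbered 2 of both labels, and the other libraries numbered 2 stood at 1.23 to 1.34. For Hba-x the shares of alpha-type TPM were 71.8% and 53.3% in the 3 h and 76.0% and 56.2% in the untreated libraries labelled knockout. Other shares overlapped between the numbers. Hba-a1 made up 35.3% to 40.3% of the sum of Hba-a1 and Hba-a2 in libraries numbered 1 and 32.1% to 42.9% in those numbered 2, and with the knockout label it was at 40.3% and 41.7% at 1 h, 35.7% and 34.6% untreated and 35.3% and 35.5% at 3 h. Adult beta globin made up 1.34% and 0.838% of beta-type TPM in untreated libraries labelled knockout against 0.661% and 0.513% with the wild-type label, and 0.863% and 0.714% against 0.516% and 0.513% at 1 h. At 3 h these shares were 0.524% and 0.683% against 0.595% and 0.552% and overlapped.

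Tested over all libraries with the group means in the fit, 6 members were higher in libraries numbered 2: Hbb-y (log2 1.40, adjusted p = 0.00365), Hbb-bt (1.19, adjusted p = 0.012), Hba-a1 (1.00, adjusted p = 0.00556), Hba-a2 (0.99, adjusted p = 0.00984), Alas2 (0.66, adjusted p = 0.0297) and Hbb-bs (0.54, adjusted p = 0.02). They stand beside 31.4% of all tested genes called higher and an all-gene median of 0.14. Hba-x alone had an estimate below 0 (-0.21, adjusted p = 0.43). What the number marks (litter, day or preparation) is not given in the labels, and its part in these shares was not tested.

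**Figure D3:**
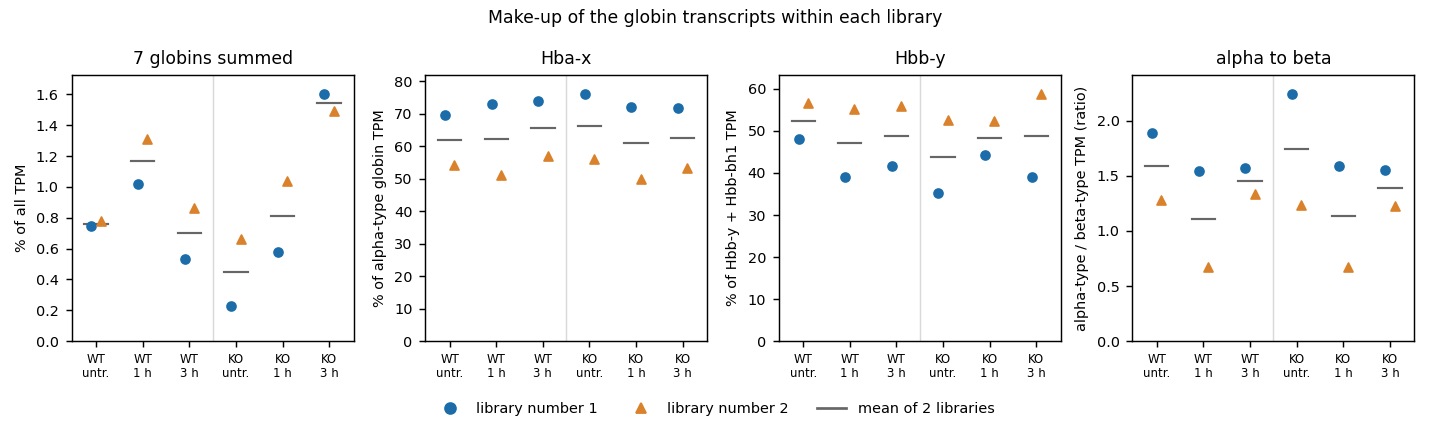
Within-library measures by group, with circles for library number 1, triangles for number 2 and lines at the mean of both: the 7 globins as a percent of all TPM, Hba-x as a percent of alpha-type TPM, Hbb-y as a percent of Hbb-y plus Hbb-bh1, and the ratio of alpha-type to beta-type TPM. In the panels of Hba-x, Hbb-y and the ratio every circle lies above (Hba-x, ratio) or below (Hbb-y) every triangle, whereas the summed globin share is highest at 3 h with the knockout label.

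Other genes of the globin family were low. The alpha-like Hbq1b measured 0.56 to 3.66 TPM. At 3 h against untreated with the knockout label it was called only with the block (log2 0.85, adjusted p with the block 0.0471). Myoglobin (Mb), the oxygen store of muscle, was at 0.66 and 0.92 TPM untreated and 3.26 and 2.26 TPM at 3 h with the knockout label and rose (log2 1.06, adjusted p = 0.0353). The pseudogene Hbb-bh0 was listed at 54.3 TPM in the untreated library numbered 1 labelled knockout and at 0 in the other 11, the reverse of the globins there. Its GENCODE transcript is 129 bases long, against a read length of 75 bases. It failed the filter on low values and was not tested.

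Other red cell genes were read from lists by role, for 3 h against untreated under the knockout label. Counts over these lists stand beside 6.25% of all tested genes called higher and 5.87% called lower, or 11.1% and 18.1% with the block. Of 9 tested genes of haem synthesis 2 rose and none fell: Alas2, and Cpox, a late enzyme of the pathway, which went from 26.7 and 32.2 TPM to 61.5 and 57.3 TPM (log2 0.99, adjusted p = 0.0162). Urod, an intermediate enzyme, measured 50.5 and 59.7 TPM untreated and 55.8 and 85.7 at 3 h and did not pass (adjusted p = 0.689). The median over the list was 0.37, and 4 genes rose with the block, adding Alad (0.72, adjusted p with the block 0.00304) and Fech (0.69, 0.0111), which makes haem from its last precursor.

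In haem and iron transport 1 of 9 genes rose, the endosomal iron reductase Steap3, from 1.59 and 3.15 to 10.2 and 11.7 TPM (log2 1.86, adjusted p = 0.00185), and the list median was 0.20. The transferrin receptor Tfrc, the main door for iron, was at 45.2 and 61.97 TPM untreated and at 39.9 and 62.4 TPM at 3 h. With the block 4 rose and 1 fell, the iron transporter Slc11a2 (-0.70, adjusted p with the block 0.0102). Hmox1, which breaks haem down, went from 15.8 and 16.7 to 68.1 and 79.96 TPM (log2 2.12, adjusted p = 0.000202), and was called as 1 of 3 genes of haem oxidation and iron storage. The ferritin gene Fth1 stood at 758 and 806 TPM untreated and 1082 and 1051 at 3 h (adjusted p = 0.107, or 0.011 in the blocked fit).

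Of 16 tested membrane and skeleton genes 10 rose and none fell, with a median of 0.96, beside 6.25% of all tested genes called higher. Slc4a1, the anion exchanger band 3, went from 11.7 and 25.4 to 48.8 and 46.4 TPM (log2 1.40, adjusted p = 0.0294). Epb42 (protein 4.2) changed by 1.12 (adjusted p = 0.0129) and Dmtn (dematin, which bundles actin) by 0.75 (adjusted p = 0.0352). Epb41 (protein 4.1), the most abundant of the list and broadly used outside red cells, was at 172 and 120.3 TPM untreated and 112 and 87.4 TPM at 3 h (-0.53, adjusted p = 0.314). With the block 14 rose and 1 fell, Epb41.

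Among 13 tested transcription factors 3 rose, or 4 with the block, with a list median of 0.05. Gfi1b, a repressor needed for red cells and megakaryocytes, went from 0.96 and 2.10 to 7.26 and 7.23 TPM (log2 1.74, adjusted p = 0.0042). Nfe2, a globin activator, changed by 0.98 (adjusted p = 0.0281), and Zfpm1, the GATA1 cofactor FOG1, by 0.71 (adjusted p = 0.0208). Ldb1, the bridging factor of GATA1 complexes, was level at 181 and 152.5 against 178 and 165 TPM. Of 10 cytosolic red cell genes Blvrb (biliverdin reductase, 10.97 and 18.9 to 44.5 and 36.45 TPM, adjusted p = 0.0183) and Trim10 (0.88, adjusted p = 0.0309) rose, and 5 rose with the block, while none of 6 receptor and signalling genes passed without it. Epor, the erythropoietin receptor, was at 2.16 and 3.55 TPM untreated and 5.71 and 7.21 at 3 h (adjusted p = 0.0598, or 0.00379 in the blocked fit). Over the 6 receptor and signalling genes the median was 0, and with the block 1 rose (Epor) and 1 fell. With the wild-type label no gene of any of these lists passed at 3 h, where 0% of all tested genes were called.

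Leaving out libraries changed these counts. With both 1 h libraries numbered 2 left out, a choice made after seeing the data, 9 membrane genes, 2 of haem synthesis, 2 of the cytosol, 3 transcription factors and 2 visceral endoderm genes rose. Without the untreated library numbered 1 labelled knockout the membrane, haem synthesis, cytosol and globin family lists each had 0 genes called and 1 transcription factor rose, while 1 gene each of iron transport and of haem oxidation rose.

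**Figure D4:**
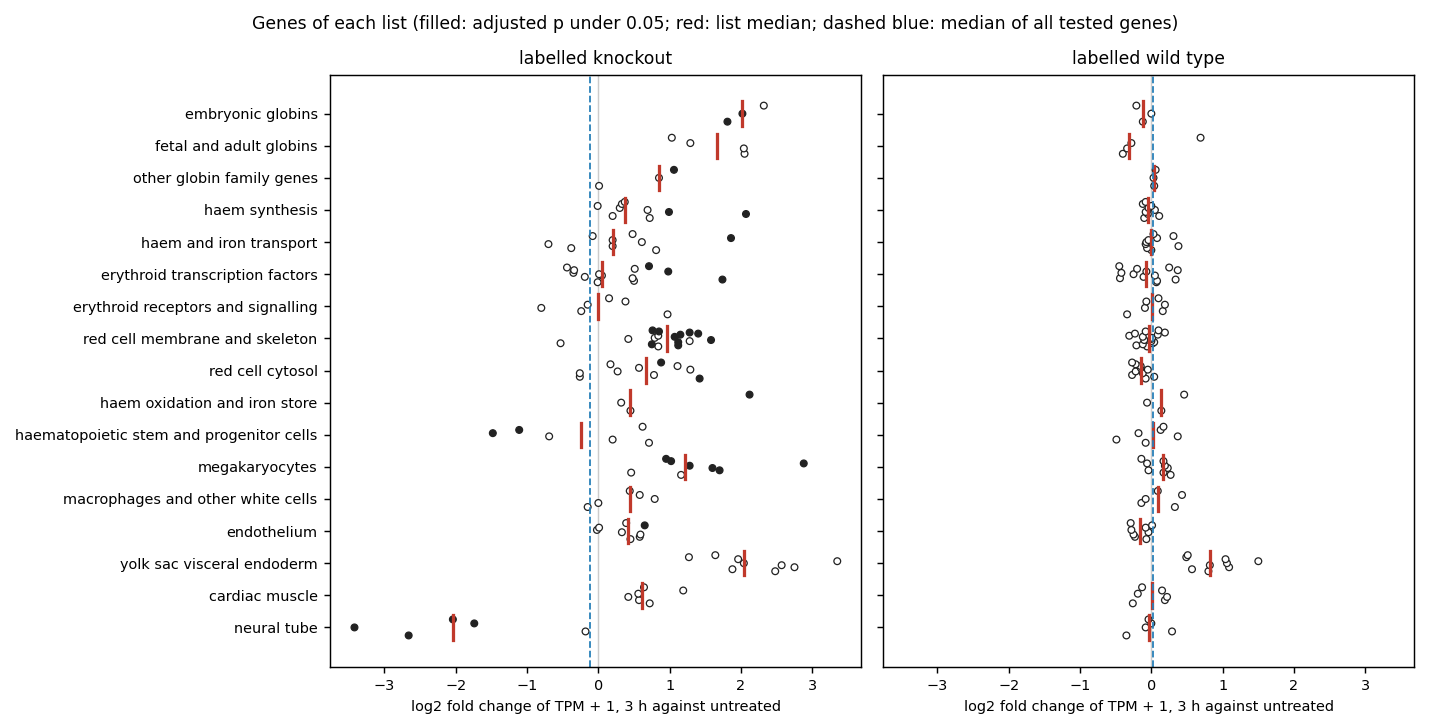
Log2 fold change of TPM + 1 at 3 h against untreated for every tested gene of each list shown, for libraries labelled knockout (left) and wild type (right). Points are genes, filled where the adjusted p was under 0.05. The list median is in red and the median of all tested genes is a dashed line. The trophoblast, decidua and adult red cell lists are not shown. With the knockout label the globin lists have medians of 2.02 and 1.67 and membrane genes 0.96. Medians with that label are 1.22 for megakaryocyte, 2.04 for visceral endoderm and -2.04 for neural tube genes. With the wild-type label no point is filled, and 0% of all tested genes were called.

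Markers of other cell types moved in the same comparison. In it 6.25% of all tested genes were called higher, or 11.1% with the block. Of 8 megakaryocyte genes 6 rose, among them Pf4, a platelet chemokine (0.56 and 2.04 to 14.3 and 15.8 TPM, adjusted p = 0.0116), and Itgb3, a platelet integrin (adjusted p = 0.00295). Their summed level was 8.35 and 12.1 TPM untreated and 54.2 and 41.9 TPM at 3 h with the knockout label, and 14.3 to 16.3 TPM in untreated and 3 h libraries labelled wild type. Without the untreated library numbered 1 labelled knockout 2 of these genes rose. With the block 7 megakaryocyte genes rose. The progenitor genes Myb and Meis1 fell by 1.11 (adjusted p = 0.00871) and 1.48 (adjusted p = 0.0183), 2 of 6 tested, beside 5.87% of all tested genes called lower. Of the 6 estimates 3 were above 0, and the list median was -0.24, against -0.12 over all tested genes. Cd34 was at 44.1 and 46.2 TPM untreated and 80.4 and 68.7 TPM at 3 h (adjusted p = 0.0517, or 0.00653 in the blocked fit). With the block 2 progenitor genes rose, Cd34 among them, and 3 fell, beside 18.1% of genes called lower. White cell markers summed to 0.86 to 10.8 TPM in the 12 libraries, and none of 5 tested passed.

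Of 8 endothelial genes Pecam1 rose (0.65, adjusted p = 0.0332), and with the block Cdh5 as well (0.45, adjusted p with the block 0.0178). Among all tested genes 6.25% were called higher, or 11.1% with the block. None of 9 visceral endoderm genes of the yolk sac passed, with a median of 2.04 and sums of 23.2 and 150 TPM untreated against 188 and 485 TPM at 3 h with the knockout label, and 1 of them rose with the block. The lowest sum of that list in the 12 libraries, 23.2 TPM, was in the same library that was lowest for 9 of the globin and erythroid genes. How many of all tested genes were lowest there was not computed. Cardiac muscle genes summed to 1920 and 1440 TPM untreated and 2710 and 2460 TPM at 3 h, with none of 6 passing. With the block 3 rose: Actc1 (adjusted p = 0.00439), Myl7 (0.0143) and Tnnt2 (0.0209). Of 5 neural tube genes 4 fell (Pax6 by 3.42, adjusted p = 0.00102), beside 5.87% of all tested genes called lower. The sum of this list went from 275 and 287 to 114 and 112 TPM. The part of these markers in the globin result was not tested.

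Tissues around the embryo were read from 3 short lists. Of 6 trophoblast genes 4 stayed under 1 TPM in every library, with Tpbpa, a defining marker of the placental trophoblast, listed at 0 in all 12. Hand1, also used in the heart, measured 13.2 to 56.9 TPM, and Ascl2 rose at 3 h with the knockout label, from 0.57 and 0.11 to 4.01 and 2.47 TPM (log2 1.66, adjusted p = 0.00394). Of 4 decidua genes 3 stayed under 1 TPM, with Prl8a2, a defining marker, at 0 in all 12, while Dcn, a matrix gene of many connective tissues, measured 2.9 to 8.76 TPM. Of the genes of adult red cells, which the mother's blood would bring, Hbb-bs and Hbb-bt are given above, and the carbonic anhydrase Car1 was at 0 to 0.31 TPM.

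The genes whose log2 levels followed the mean of the 3 embryonic globins most closely over the 12 libraries, among 10613 genes with a mean of at least 5 TPM and leaving out the members themselves, were Add2 (r = 0.961), Dgkq (0.951), Minos1 (0.949), Neurod1 (0.921), Pf4 (0.911), Pklr (0.909), Acp5 (0.907) and Hemgn (0.902). Add2 encodes beta adducin of the red cell skeleton, Pklr the red cell and liver pyruvate kinase, and Hemgn the nuclear protein hemogen. Neurod1, a neural and pancreatic factor, ran from 1.71 TPM in the untreated library numbered 1 labelled knockout to 14.05 TPM in the 3 h library numbered 1 of that label. Among the members themselves r ran from 0.08 for Hbb-bt with Klf1 to 0.98 for Hbb-y with Hba-a1. The 12 points share groups, library numbers and the fixed sum of TPM, so these correlations are descriptions only.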

How the data were processed

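Transcript abundance was measured in 12 libraries of polyadenylated RNA (about 500 ng of total RNA, paired reads of 75 bp, per the labels' protocols). The authors deposited TPM per gene ID. Tools listed in the submitters' processing notes are RSEM 1.3.3, STAR 2.7.3a, DESeq2 1.42.1, HTSeq 0.12.3 and R 4.3.3, with the build GRCm39 and no role for any of them. The annotation release is not given in the sources used here. Columns summed to 999999.1 to 1000000.8, so they keep no depth, no counting error can be given, and reads of near-identical or overlapping genes were divided in a way not known here. A rise of one group of transcripts lowers the TPM of others.

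Symbols were matched by gene ID to a GENCODE annotation of the earlier build GRCm38, for 52093 IDs (97.1%). Promoter sequences are RefSeq, GRCm38.p6.

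The 15535 genes that reached 1 TPM in 2 or more libraries were fitted with limma 3.58.1 in R 4.3.3 on log2(TPM + 1), 1 mean per group over all 12 libraries, with the spread moderated along its trend, two-sided, and Benjamini-Hochberg adjustment over all genes in each of 12 comparisons. This left 6 residual degrees of freedom, or 5 when the library number was a block. Differences between libraries 2 and 1 of a group had correlations of 0.327 to 0.796 over genes in all 15 pairs of groups, so the number was taken to pair libraries, and the blocked value is given beside results whose call or count it changed. Within groups the libraries correlated at 0.935 to 0.974, so none was treated as a copy. The fit was tested on simulated data. Tables and figures used Python 3.11.15, pandas 2.3.3 and matplotlib 3.10.9.

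The genes named are the members, the 2 most abundant genes of each list, up to 4 called genes per list and comparison, and the 8 genes most correlated with the embryonic globins. Defining markers at or near 0, and Trp53 and Cdkn1a as label checks, are named besides. Results for 2 list genes are not reported here. The members and lists were chosen with earlier results of these data known, so counts over them are descriptions. Alternatives were a pseudocount of 0.1, no filter, a filter at 5 TPM, median-of-ratios size factors, rescaling without the globins, only the groups compared, no trend, the block, and each library left out in turn.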

Additional observations from a re-analysis of the deposited data

Results flagged for a closer look

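The 3 h response differed between the labels for 3 genes of the red cell lists, by limma's test of the difference (knockout minus wild type label). These 3 of 76 tested genes of the red cell lists (3.95%) stand beside 3.45% of all tested genes called in this comparison, so the share is near the background. For Steap3 the difference was 1.79 on the log2 scale (SE 0.351, adjusted p = 0.031), with responses of 1.86 in libraries labelled knockout and 0.08 in libraries labelled wild type. For Hmox1 it was 1.66 (SE 0.257, adjusted p = 0.0105), with responses of 2.12 and 0.46. For Zfpm1 it was 1.17 (SE 0.222, adjusted p = 0.0263), with responses of 0.71 and -0.45. All 3 were higher in both 3 h libraries labelled knockout than in the other 10 libraries. None of the 10 globin and erythroid genes passed this test without the library number as a block.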

How the results depend on the processing

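The count of members called at 3 h against untreated with the knockout label, 3 as reported, was 5 with median-of-ratios size factors (Hba-x, Hbb-bh1, Hba-a1, Hbb-bs and Alas2), 0 with no filter, 0 with only the groups compared, 7 with the replicate block, and 0 to 5 with a library left out in turn, where a lone library is taken to vary like the other groups. Hba-x kept its call in 10 of 12 such fits, Alas2 in 5 and Hbb-bh1 in 3. For 3 h against 1 h with the knockout label the count of 0 became 3 with the block and 0 to 1 with a library left out. For the knockout against the wild-type label at 3 h it became 1 with size factors (Hbb-bs) and 4 with the block, and for the difference of the 3 h responses 6 with the block and 0 to 1 with a library left out. With size factors the all-gene median moved from -0.12 to -0.02 at 3 h against untreated (knockout label), from -0.16 to -0.01 for label against label at 3 h, and from 0.14 to 0.01 by library number. The counts in the other comparisons stayed within 1.5 times. No called estimate changed sign. With both 1 h libraries numbered 2 left out (chosen after seeing the data) the first count was 2. The cause of these shifts was not tested. With 2 libraries per group and no read depth, differences under the spread between libraries could not be detected.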
